A study of Cervus nippon with 12 samples.

Results

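The miR-148 and miR-152 family was followed through chondrogenic induction of antler reserve mesenchyme cells (RMCs) and in antler chondrocytes. The members were found by name: every listed miRNA called bta-miR-148 with any letter or arm suffix, and bta-miR-152. This gave 5 of the 545 listed names, namely miR-148a, miR-148b, miR-148c, miR-148d and miR-152. miR-148c and miR-152 held the same number of reads in 11 of the 12 libraries and differed by 1 read, 6970 against 6969, in CC replicate 3. They were therefore counted as 1 member under the name miR-152, which leaves 4 members. Members were chosen by name, and the sharing of reads is the only measured value used in choosing them. The family itself was taken up with earlier results of these libraries known.

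Small RNA was sequenced from 12 libraries of wild-type sika deer (Cervus nippon) antler cells, 3 in each of 4 groups. CP_0, CP_7 and CP_14 are RMCs, labelled as mesenchymal stem cells, after 0, 7 and 14 days in chondrogenic medium in centrifuge tubes, and CC is chondrocytes grown from antler cartilage with no induction. The cells came from growing antler tips of adult male deer, and the study describes 3 biological replicates of each tissue type, without saying which deer gave which library. The p-values measure the spread between these libraries, and in such bulk cultures a change in the share of a cell type and a change in RNA per cell cannot be told apart.

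miRNAs of this family share a seed, the stretch near the 5′ end that pairs with target mRNAs, and are therefore expected to recognise overlapping sets of targets. miR-148a, miR-148b and miR-152 are known from other mammals for targeting the DNA methyltransferase DNMT1, and miR-148a also DNMT3B. In mammals miR-148b lies in an intron of COPZ1 and miR-152 in an intron of COPZ2, while miR-148a has a locus of its own. In human articular chondrocytes miR-148a has been described as favouring hyaline over hypertrophic cartilage matrix.

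Values are given as RPM, meaning reads of a miRNA for every 1000000 miRNA reads in its library, as deposited, or as TMM-normalized RPM, in which a composition factor corrects for a few miRNAs that take up much of a library. The libraries held 539455 to 1032029 reads in CP_7, 2791559 to 4097304 in CP_0 and CP_14, and 9714090 to 10256572 in CC. miR-21-5p took 21.4% to 24.3% of the reads in CP_7 and 72.9% to 76.9% in CC, so that the scale matters for every comparison with these groups. The chondrocyte miRNAs miR-140 and miR-455 (3 names) had at least 10 reads in every library, and their summed level of 9043 to 10580 RPM in CP_0 overlapped the 10110 to 11380 RPM in CC. Most of this sum was miR-140, with 8831 to 10341 RPM in CP_0 and 9769 to 11013 RPM in CC. The overlap depended on the scale. After TMM normalization over the 12 libraries, miR-140 alone had 10312 to 11140 in CP_0 and 16313 to 17758 in CC, without overlap. CP_0 replicate 3 held 6933 reads of miR-451, a red blood cell miRNA, against 27 and 29 in the other CP_0 libraries. Leaving that library out changed no call of a family member. Of the other marker lists, summed endothelial miRNAs (2 names) ranged from 188 to 3083 RPM and neuronal ones (3 names) from 123 to 1901 RPM in CP_7. Elsewhere they had at most 83.7 and 177 RPM. The CP_7 libraries thus differed widely among themselves. The highest endothelial sum was in CP_7 replicate 3 and the highest neuronal sum in CP_7 replicate 1. Leaving out either of these libraries changed calls of family members, as given below. The endothelial miR-126-3p was not called in CP_7 against CP_0 (log2 fold change 2.34 ± 0.89 SE, limma adjusted p = 0.0525). Epithelial (6 names) and leukocyte miRNAs (3 names) stayed at or below 46.2 and 29.1 RPM in every library.

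miR-148a was the abundant member. Its levels were 18853, 17277 and 16740 RPM on day 0, 138930, 144426 and 129863 RPM on day 7, and 35215, 36189 and 34565 RPM on day 14. CC had 29599, 30390 and 33609 RPM. By reads it ranked 6 among the 545 names in every CP_0 library, 3 in every CP_7 library and 4 in every library of CP_14 and CC, an order that no scaling of a library can move. After TMM normalization over the 12 libraries its mean level was 20088 ± 471 on day 0, 72681 ± 12014 on day 7, 35589 ± 1286 on day 14 and 51783 ± 1096 for CC (SD, n = 3 each). No library of one group overlapped another group on either scale. On both scales CP_0 was lowest and CP_7 highest, while CC stood above CP_14 after TMM normalization and below it in RPM.

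**Figure D1:**
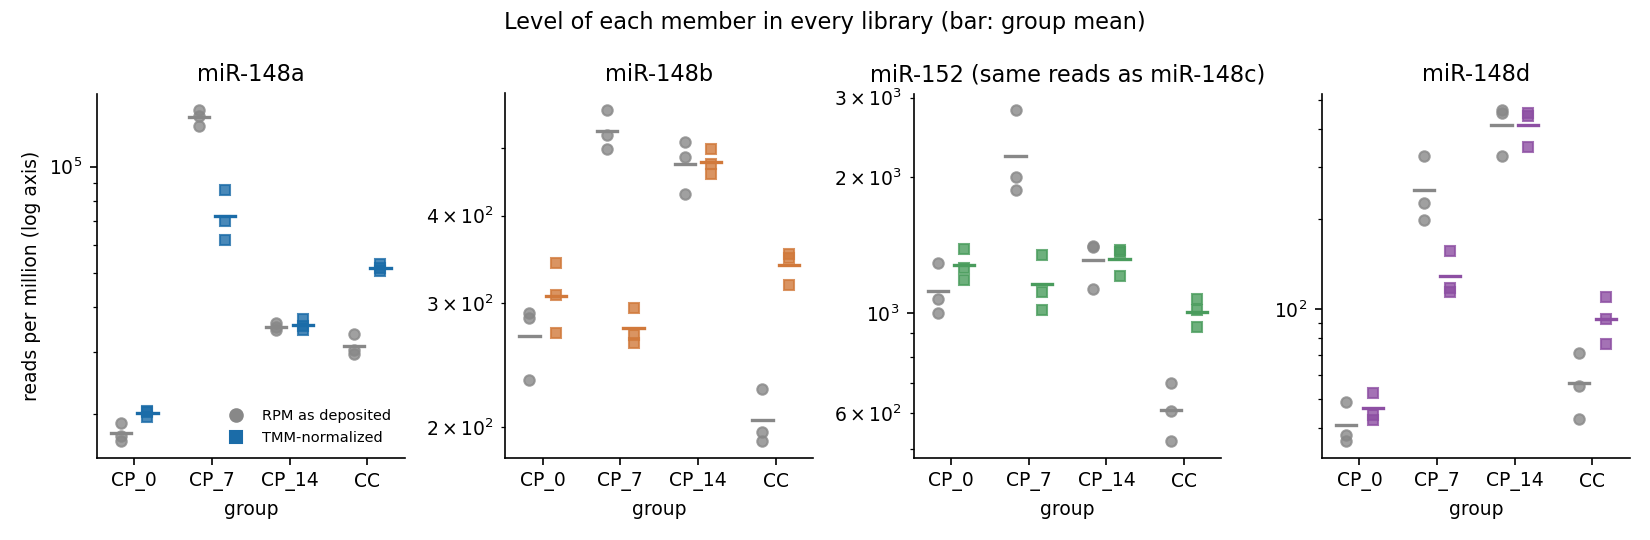
Level of each member in reads per 1000000 on a log axis, by group, with RPM as deposited as grey circles, TMM-normalized RPM as coloured squares, 1 point per library and a bar at the mean of 3. miR-148a is highest in CP_7 on both scales (129863 to 144426 RPM), and miR-148d is highest in CP_14 by mean (414 RPM), with an overlap with CP_7 in RPM but not after TMM normalization.

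miR-152 came next. It stood at 1287, 998.7 and 1074 RPM on day 0, at 2003, 1873 and 2814 RPM on day 7 and at 1396, 1408 and 1130 RPM on day 14. The CC libraries had 519.2, 606.1 and 699.0 RPM. In RPM the CP_7 libraries were above, and the CC libraries below, all others. After TMM normalization the means were 1273 ± 105 on day 0, 1157 ± 171 on day 7, 1317 ± 93 on day 14 and 1005 ± 73 for CC (SD, n = 3 each), and each group overlapped its neighbour in the order of the means. Its rank by reads stayed between 32 and 42 in all libraries.

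miR-148b was lower still. Its values were 285.9, 290.4 and 233.2 RPM on day 0, 521.0, 498.0 and 565.4 RPM on day 7, and 484.7, 508.8 and 429.0 RPM on day 14. In the CC libraries they were 196.9, 191.0 and 226.7 RPM. In RPM the CP_7 and CP_14 libraries overlapped and lay above those of CP_0 and CC. After TMM normalization CP_14 was highest (476.7 ± 19.2, SD, n = 3) and apart from the rest, and the other groups, CP_7 at 276 ± 17, CP_0 at 307.8 ± 35.4 and CC at 339.9 ± 18.3, each overlapped their neighbour.

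miR-148d had the fewest reads of the 4 members in every library. It had 145, 148 and 138 reads in CP_0, or 48.8, 36.1 and 37.9 RPM, and 174, 205 and 176 reads in CP_7, or 226.1, 198.6 and 326.3 RPM. In CP_14 it rose to 1264, 1402 and 1257 reads, or 452.8, 463.5 and 325.2 RPM. In CC it had 440, 539 and 711 reads, or 42.9, 55.5 and 71.3 RPM. The CC values overlapped those of CP_0 in RPM but not after TMM normalization, where the order was CP_0 (46.5 ± 5.3, SD, n = 3), CC (93.0 ± 16.5), CP_7 (129.4 ± 23.1) and CP_14 (414.5 ± 57.9) with no overlap between neighbours. Its rank by reads went from 116 to 125 in CP_0 to 57 to 63 in CP_14.

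Together the 4 members made up 1.91% ± 0.13 of all miRNA reads on day 0, 14.1% ± 0.7 on day 7, 3.75% ± 0.11 on day 14 and 3.21% ± 0.22 for CC (SD, n = 3 each). Out of the reads other than miR-21-5p the shares were 4.80% ± 0.32, 18.3% ± 1.2, 7.28% ± 0.56 and 12.9% ± 0.2 in the same order. The share was highest in CP_7 and lowest in CP_0 with either total. CC and CP_14 changed places between them. miR-148a accounted for 92.1% to 98.3% of the family reads in every library, so the family share is in effect that of miR-148a.

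**Figure D2:**
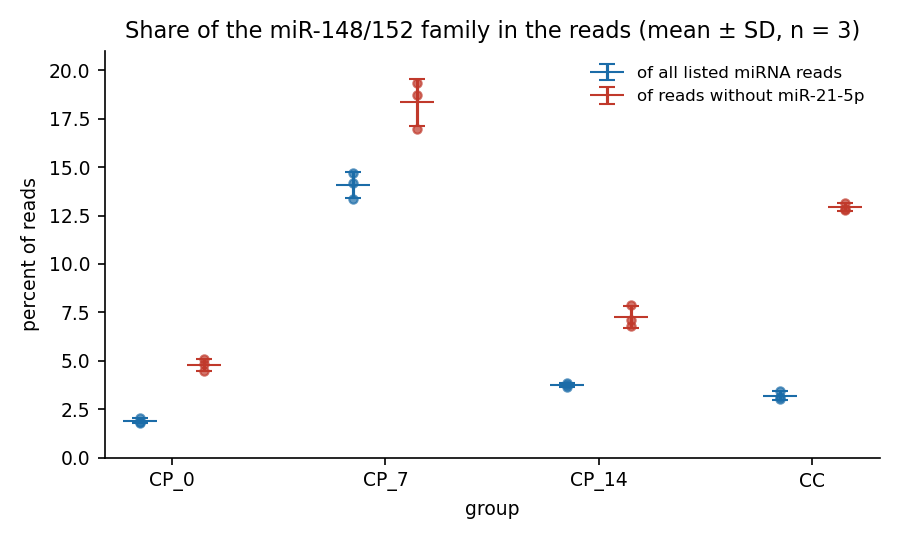
Percent of the reads of a library on the 4 members together, by group, with points for the libraries and the mean ± SD of 3, out of all listed miRNA reads (blue) and out of the reads without miR-21-5p (red). CP_7 is highest with either total, at 14.1% and 18.3%.

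The first question was which members changed during induction. Between CP_7 and CP_0, 2 of the 4 members were called at a Benjamini-Hochberg adjusted p below 0.05 by limma, both higher at day 7, while 63.8% of the 246 miRNAs tested were called, 35.8% higher and 28% lower. The same 2 members changed at least 2-fold (44.3% of all tested) and had groups that did not overlap (67.9%). miR-148a rose 3.72-fold (log2 fold change 1.89 ± 0.10 SE, limma adjusted p = 6.1e-06). Its rise lay above the change of 85.7% of the 245 other miRNAs tested. miR-148d rose 2.83-fold (1.503 ± 0.18 SE, limma adjusted p = 0.00034). The log2 fold changes of both kept their direction and their call under every scaling tried, between 1.55 and 2.97 for miR-148a and between 1.16 and 2.56 for miR-148d.

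miR-148b and miR-152 were not called between CP_7 and CP_0. The log2 fold change of miR-148b was -0.099 (95% interval -0.40 to 0.20) and that of miR-152 was -0.094 (95% interval -0.39 to 0.20). Their direction depended on the scale, since with library size only both were called higher (0.97 and 0.98) and with upper-quartile factors both were called lower (-0.45 and -0.44). miR-152 was also called lower without CP_7 replicate 3 (-0.30). Skeletal muscle miRNAs (5 names of miR-1, miR-133 and miR-206) moved with day 7 as well, from a summed 537 to 684 RPM in CP_0 to 4540 to 6637 RPM in CP_7. Of the 5, 2 had at least 10 reads in every library of each of these groups, and their part in these results was not tested.

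From CP_7 to CP_14, 3 of the 4 members were called, against 52.8% of the 246 miRNAs tested, with 2 higher and 1 lower (24.4% and 28.5% of all tested). These 3 had groups that did not overlap (62.2%), and 2 of them changed at least 2-fold (30.9%). miR-148a fell by 1.10 on the log2 scale (SE 0.10, limma adjusted p = 0.00013). miR-148d rose by 1.599 (SE 0.17, limma adjusted p = 0.00025), more than 92.2% of the other miRNAs tested. miR-148b rose by 0.71 (SE 0.086, limma adjusted p = 0.00042), but its log2 fold change was -0.16 and uncalled with library size only. The miR-152 change was 0.11 (95% interval -0.18 to 0.41), with -0.75, called, with library size only. For miR-148d the value went down to 0.74, still called, with library size only.

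Over the whole 14 days 3 of the 4 members were called, each higher in CP_14 than in CP_0, where 46% of 250 miRNAs tested were called, 24.8% higher and 21.2% lower. These 3 had groups that did not overlap (56.4% of all tested), and 1 changed at least 2-fold (19.2%). miR-148d had the largest change in the family, 8.82-fold (log2 fold change 3.14 ± 0.14 SE, limma adjusted p = 2.1e-06), above that of 98.0% of the 249 other miRNAs. miR-148a was 1.79-fold higher (0.84 ± 0.055 SE, limma adjusted p = 2.1e-05) and miR-148b 1.57-fold higher (0.65 ± 0.10 SE, limma adjusted p = 0.0017). All 3 kept the call under every scaling tried. For miR-152 the log2 fold change was 0.067 (95% interval -0.13 to 0.27), with -0.19 and uncalled with upper-quartile factors. This comparison shares its libraries with the 2 before it, so the 3 sets of changes are not independent.

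**Figure D3:**
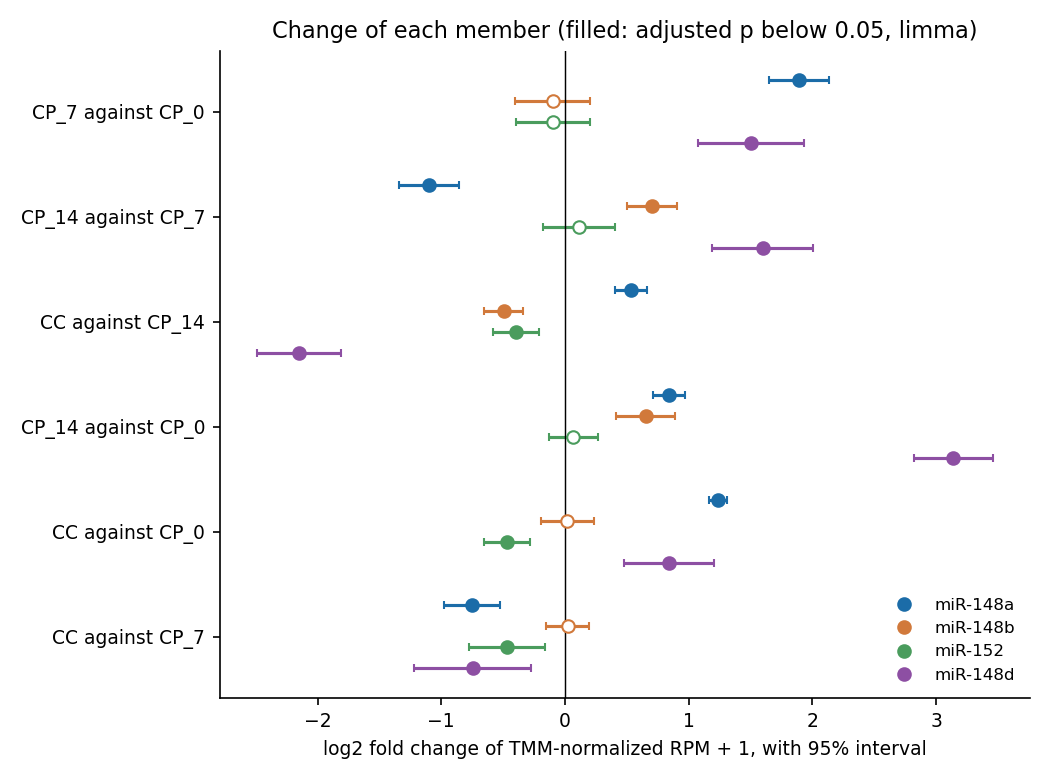
Log2 fold change of each member in 6 comparisons, on TMM-normalized RPM + 1, with the 95% interval of the limma fit and filled points for an adjusted p below 0.05. miR-148a and miR-148d are both to the right at day 7 (1.89 and 1.503) and on opposite sides from day 7 to day 14 (-1.10 and 1.599) and in CC against CP_14 (0.53 and -2.15), where the miR-148a value becomes -0.18 with library size only. From day 7 to day 14 the miR-148b value becomes -0.16 with library size only.

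The next comparison set chondrocytes beside the cells at the end of induction. All 4 members were called between CC and CP_14, in a comparison where 74.6% of 276 miRNAs were called. Of the members, 1 was higher and 3 were lower in CC (37.7% and 37% of all tested). All 4 had groups that did not overlap (78.6% of all tested), and 1 changed at least 2-fold (35.5%). miR-148d stood at 0.225 of its CP_14 level (log2 fold change -2.15 ± 0.15 SE, limma adjusted p = 1.5e-06), with 4.0% of the 275 other miRNAs below it. miR-148b (-0.50 ± 0.069 SE, limma adjusted p = 0.00014) and miR-152 (-0.40 ± 0.083 SE, limma adjusted p = 0.0019) were lower in CC too. With totals that omit miR-21-5p and no other factor, these became -0.15 and -0.052, neither of them called. miR-148a was higher in CC by 0.53 (SE 0.059, limma adjusted p = 2.8e-05) but -0.18 and uncalled with library size only.

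Against the uninduced cells 3 of the 4 members were called in chondrocytes, with a background of 55.8% of 260 miRNAs tested, and 2 were higher and 1 lower (30% and 25.8% of all tested). These 3 had groups that did not overlap (63.1%), and 1 changed at least 2-fold (19.6%). miR-148a was 2.35-fold higher in CC than in CP_0 (log2 fold change 1.24 ± 0.031 SE, limma adjusted p = 7.2e-07), and called under every scaling tried (0.82 to 1.504). Of the 259 other miRNAs, 95.4% changed by less or fell. miR-148d was higher by 0.84 (SE 0.15, limma adjusted p = 0.0037), without a call at 0.44 with library size only. miR-152 was lower by 0.47 on the log2 scale (-0.47 ± 0.077 SE, limma adjusted p = 0.0025), without a call at -0.20 with totals that omit miR-21-5p. miR-148b differed by 0.017 (95% interval -0.20 to 0.23), with -0.39, called, with library size only.

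CC and CP_7 are neighbours in the order of the miR-148a levels after TMM normalization, though not in RPM. This pair was compared after the levels had been seen. 3 of the 4 members were called lower in CC, against 67.4% of 276 miRNAs called, 29% higher and 38.4% lower. With TMM factors from these 6 libraries the groups of these 3 did not overlap (70.7% of all tested), whereas with factors from all 12 libraries those of miR-152 did. None changed at least 2-fold (47.8%). The miR-148a difference of -0.75 (SE 0.094, limma adjusted p = 0.00038) was no longer called without CP_7 replicate 1 (-0.39) or CP_7 replicate 2 (-0.10), or with upper-quartile factors (-0.23). miR-148d (-0.75, adjusted p = 0.013 by limma) lost the call without CP_7 replicate 1 (-0.45), replicate 2 (-0.29) or replicate 3 (-0.36), with upper-quartile factors (-0.23) and with totals that omit miR-21-5p (-0.51). miR-152 (-0.47, adjusted p = 0.015 by limma) lost it without CC replicate 1 (-0.39), CP_7 replicate 1 (-0.18) or CP_7 replicate 3 (-0.11), and turned to 0.028 without CP_7 replicate 2 and to 0.052 with upper-quartile factors. It was not called either with totals that omit miR-21-5p (-0.23) or with all 12 libraries in 1 fit (-0.19). miR-148b had 0.023 (95% interval -0.15 to 0.20) and was called lower with library size only (-1.36). It was called higher with upper-quartile factors (0.54), with totals that omit miR-21-5p (0.26), with all 12 libraries in 1 fit (0.30) and without CP_7 replicate 2 (0.59). The calls of miR-148a, miR-148d and miR-152 between CC and CP_7 therefore depended on which libraries were kept and on the scaling. The median log2 fold change of all miRNAs tested moved as well. It was -0.089 with all 6 libraries and 0.206, 0.424 and 0.168 without CP_7 replicate 1, 2 and 3. With all 12 libraries in 1 fit, miR-148a (-0.48) and miR-148d (-0.47) were still called.

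Ratios between members within a library do not depend on how the library is scaled. A miRNA can be taken up by the library kit more readily than another, so only changes of a ratio were compared. Such a change is close to the difference between the log2 fold changes of both members, so it largely restates the levels. In CP_7 against CP_0 these were 1.89 for miR-148a, -0.099 for miR-148b and -0.094 for miR-152. Any miRNA that rose less than miR-148a would also show a fall in its ratio to it. For each read of miR-148b there were 59.5 to 71.8 reads of miR-148a on day 0, 229.7 to 290.0 on day 7, 71.1 to 80.6 on day 14 and 148.3 to 159.1 among CC libraries. The log2 ratio of miR-148b to miR-148a fell by 1.99 from CP_0 to CP_7 and rose by 1.805 from CP_7 to CP_14, with no overlap in either case, and the CP_14 and CP_0 ratios overlapped (difference -0.19). It was lower in CC than in CP_14 by 1.03 on the log2 scale (-1.03), without overlap.

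For each read of miR-152 there were 14.7 to 17.3 reads of miR-148a on day 0, 46.2 to 77.1 on day 7, 25.2 to 30.6 on day 14 and 48.1 to 57.0 among CC libraries. The log2 ratio changed by -1.99 from CP_0 to CP_7 and by 1.21 from CP_7 to CP_14. At day 14 it was still below day 0 (-0.78), and no groups overlapped in these comparisons or in that of CC with CP_14 (-0.93).

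miR-148d followed another course. For each of its reads there were 386.6 to 478.3 reads of miR-148a on day 0, 398.0 to 727.1 on day 7, 77.8 to 106.3 on day 14 and 471.3 to 690.0 among CC libraries. The CP_0 ratios overlapped those of CP_7 (log2 difference -0.37) and of CC (-0.38). The CP_14 ratios lay apart, above CP_7 by 2.70 and above CP_0 by 2.33, and CC differed from CP_14 by -2.70. In other words miR-148d made up 0.892% to 1.21% of the family reads in CP_14 and 0.135% to 0.244% in all other libraries.

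In exact two-sided permutation tests on these log2 ratios, 12 of the 15 comparisons (3 ratios in 5 pairs of groups) did not overlap and had p = 0.1, the smallest that 3 libraries against 3 allow, with an adjusted p of 0.125 over the 15. By the same exact permutation test the rest had p = 0.2 or 0.3 (miR-148b in CP_14 against CP_0, and miR-148d in CP_7 and in CC against CP_0). This design cannot reach 0.05. The 15 are not independent, because all 3 ratios are taken to miR-148a and the 5 pairs share libraries. In the same 5 pairs the levels of 56.4% to 78.6% of all miRNAs tested did not overlap. The share of other miRNAs whose ratio to miR-148a does not overlap was not computed.

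**Figure D4:**
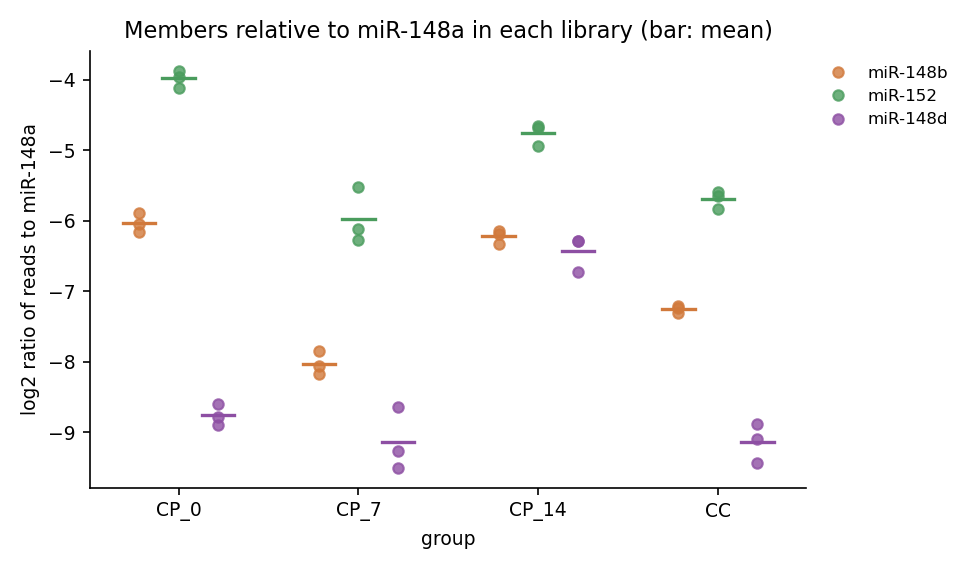
Log2 ratio of the reads of miR-148b, miR-152 and miR-148d to those of miR-148a in each library, by group, with 1 point per library and a bar at the mean of 3. The ratio of miR-148d is highest in CP_14 (mean -6.43) and between -8.64 and -9.51 in CP_7, whereas those of miR-148b and miR-152 are highest in CP_0 by mean, with an overlap between CP_0 and CP_14 for miR-148b.

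The reads of miR-148d and miR-152 varied less between libraries of a group than their RPM values did. The coefficient of variation of miR-148d was 3.57% in reads and 16.7% in RPM in CP_0, 9.38% and 26.8% in CP_7, and 6.25% and 18.6% in CP_14. For miR-152 the numbers were 3.46% and 13.4%, 14.0% and 22.9%, and 5.88% and 12%. miR-148a and miR-148b had the larger spread in reads in all 3 groups. Of the 133 names with a mean of at least 50 reads in each of these groups, 15 (11.3%) had reads less spread than RPM in all 3. Names that share reads count separately here, so miR-148c and miR-152 are both among the 133 and the 15. In CC, where the depth hardly differed, the coefficient of variation of miR-148d was 24.3% in reads and 25.2% in RPM. Before any scaling, the mean of miR-148d was 143.7 ± 5.1 reads in CP_0, 185.0 ± 17.3 in CP_7 and 1308 ± 82 in CP_14 (SD, n = 3 each), in libraries that were shallowest in CP_7. These spreads come from 3 libraries per group, and they were not compared with the counting error expected at such read numbers. What sets the number of reads was not tested.

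**Figure D5:**
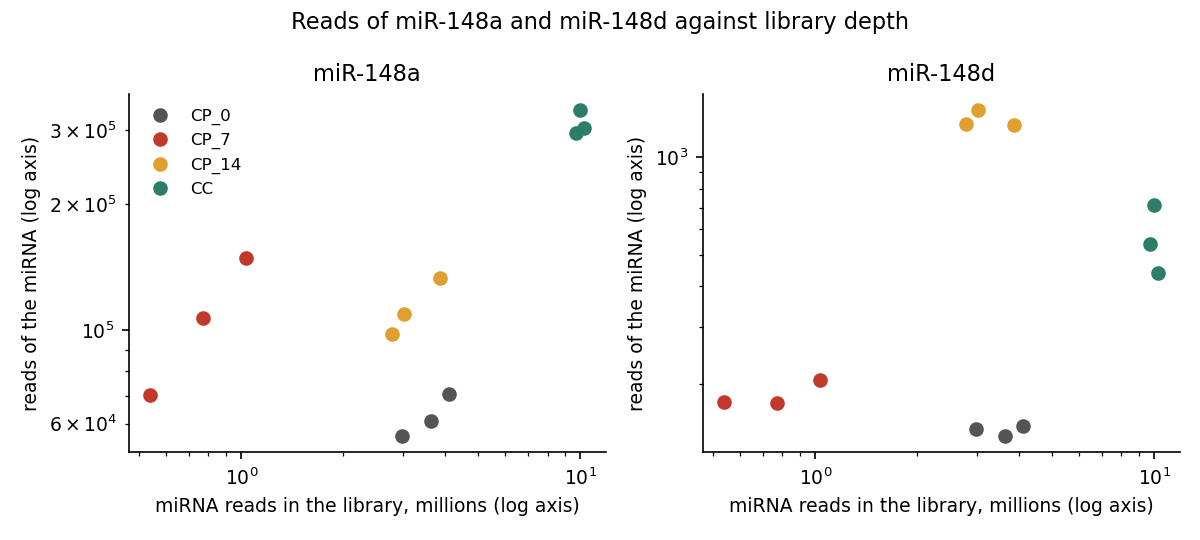
Reads of miR-148a and miR-148d in each library against the total miRNA reads of the library, both on log axes, coloured by group. Within CP_0, CP_7 and CP_14 the miR-148a reads climb with depth, and the miR-148d reads stay within 138 to 148, 174 to 205 and 1257 to 1402.

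Red blood cell miRNAs (3 names of miR-451, miR-144 and miR-486) were also higher at day 14 than at day 7, with a summed 3486 to 5167 RPM in CP_14 and 22.1 to 145 RPM in CP_7. CC held 1387 to 1460 RPM, CP_0 ranged from 11.8 to 4192 RPM, and 1 of the 3 names was at 0 in every CP_14 library. In CP_0 the library with 6933 miR-451 reads had 138 reads of miR-148d against 145 and 148 in the others. The part of these miRNAs in the change of miR-148d at day 14 was not tested.

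Other miRNAs known to target DNA methyltransferase mRNAs (miR-29, miR-342, miR-185, miR-101, miR-143 and miR-126, 11 listed names) were set beside the family. The 11 names were taken with any letter or arm, without regard to which arm is known to target these mRNAs. The counts and medians below thus include miR-29d-5p and, where tested, miR-126-5p, while miR-29d-3p was not tested in any comparison. Between CP_7 and CP_0, 9 were tested, 5 rose and 3 fell, where 35.8% and 28% of all miRNAs tested did, with a median log2 fold change of 1.09 beside 0.075 over all 246 tested. miR-29a (0.95, adjusted p = 5.9e-05), miR-29b (1.24, adjusted p = 0.0003), miR-29c, miR-29d-5p and miR-342 rose. miR-101 (-2.06, adjusted p = 3.4e-06), miR-143 (-1.70, adjusted p = 2.3e-05) and miR-185 fell, all p-values by limma.

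From CP_7 to CP_14, 3 of the 9 tested were called higher and 2 lower, near the 24.4% and 28.5% of all tested (median -0.64, beside -0.0089 over all tested), with 2 higher and 7 lower when only the library size was used. miR-29a (-0.83) and miR-29b (-0.68) fell, while miR-101 rose by 2.19 and miR-143 by 2.27. In CC against CP_14, 3 of 10 were higher and 6 lower, beside 37.7% and 37% of all tested (median -0.29, beside 0.086), with 3 higher and 2 lower with totals that omit miR-21-5p. Between CP_14 and CP_0, 5 of 10 were higher and 1 lower, beside 24.8% and 21.2% of all tested (median 0.25, beside 0.010), and 3 were higher with upper-quartile factors or with totals that omit miR-21-5p. Between CC and CP_0, 2 of 10 were higher and 2 lower, beside 30% and 25.8% of all tested (median 0.038, beside 0.053). That split became 5 higher and 1 lower with totals that omit miR-21-5p, and 1 higher and 4 lower with library size only.

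The likeness of patterns was measured as Pearson's r of log2(TMM-normalized RPM + 1) over the 12 libraries, among 277 miRNAs. It is a description, since the libraries fall into 4 groups that share depth and composition. The members were not much like each other. Their r ran from -0.52 for miR-148a with miR-152 to 0.74 for miR-148b with miR-148d. Closest to miR-148a were miR-455-3p (r = 0.96), let-7e (0.94) and let-7d (0.93). miR-455-3p is a cartilage miRNA, and its mean TMM-normalized RPM was 27.3 on day 0, 71.8 on day 7, 46.1 on day 14 and 53.0 for CC, the same order of groups as for miR-148a. miR-140, also a chondrocyte miRNA, did not share this order and was lowest in CP_7. Its TMM-normalized RPM was 4761 to 5376 in CP_7 and 10312 to 11140 in CP_0, while in RPM CP_7 and CP_0 overlapped. The miR-140 log2 fold change in CP_7 against CP_0 was -1.03 (adjusted p = 2.6e-05 by limma).

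Closest to miR-148d were miR-147 (r = 0.985), which averaged 9.20 TMM-normalized RPM on day 0, 39.4 on day 7, 132.4 on day 14 and 26.2 for CC, miR-2285l (0.97) and miR-504 (0.91, with 1 to 35 reads). miR-148b was most like miR-7857-5p (0.93), novel_303 (0.86, with 0 to 22 reads) and miR-1839 (0.84). miR-152 was most like miR-151-3p (0.93), miR-191b (0.91, with 1 to 10 reads) and miR-378c (0.86).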

How the data were processed

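The deposited values, called tpm per the file headers, are RPM that the authors computed as reads per 1000000 miRNA reads, divided by neither length nor any composition factor. Total RNA went into NEBNext small RNA libraries, which were read on an Illumina NovaSeq. The submitters' processing notes name CASAVA, bcl2fastq 1.8.4 and Bowtie. How reads were counted, and against which database release, is not given in the sources used here, although deer reads carry cattle (bta-) names. Reads shared by 2 names count under both in the totals.

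Reads were recovered by dividing by the value of 1 read, and 100% of the values came out whole within 0.01 read in every library. 1 read was worth 0.0975 to 1.85 RPM, so 0 reads allows up to 0.292 to 5.56 RPM (3 reads, counting error only).

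limma (two-sided, intensity trend) compared each pair of groups from their 6 libraries alone, on log2(RPM + 1) after TMM factors from all listed miRNAs. edgeR's filterByExpr (minimum count 10, minimum total 15) chose the miRNAs tested, and p-values were adjusted over all of them. Names that share reads count separately among the miRNAs tested, except where shared names were collapsed. A fold change on this scale understates that of low miRNAs. Versions were DESeq2 1.42.0, edgeR 4.0.16, limma 3.58.1 and R 4.3.3. Alternatives were other scalings (RLE, upper-quartile, library size only, totals without miR-21-5p), pseudocounts of 0.5 and 5 RPM, no filter, edgeR and DESeq2 on recovered reads, 1 fit of all 12 libraries, a replicate block, shared names collapsed, and each library left out.

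Members, lists and tests were chosen with earlier results of these data known. All members are named, and for likeness the 3 most correlated miRNAs of each. Same-numbered libraries did not deviate together (correlations -0.29 to 0.13), except in CC against CP_7 (0.12 to 0.17), and nothing in the labels ties them.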

Additional observations from a re-analysis of the deposited data

How the results depend on the processing

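Of 432 log2 fold changes of members recomputed under other settings, 389 kept direction and call and 19 changed sign. Among those that kept their sign, 17 lost a call and 7 gained one. Some of the 19 also lost or gained a call, which the 17 and 7 leave out. The cause was not tested. The calls of miR-148a and miR-148d at day 7, from day 7 to day 14 and over 14 days held in every setting tried, including each library left out, except that miR-148a over 14 days missed a 2-fold minimum. The number of members called between CP_7 and CP_0 was 2, but 3 without CP_7 replicate 3 and 4 with upper-quartile factors or library size only. Between CC and CP_14 it was 4, but 3 with library size only and 2 with totals without miR-21-5p. Between CC and CP_0 it was 3, but 2 with totals without miR-21-5p. Between CC and CP_7 it was 3, but 4 with library size only and 2 with totals without miR-21-5p. With at least 2-fold added, it was 1 in CC against CP_14, in CP_14 against CP_0 and in CC against CP_0, and 0 in CC against CP_7, where it was 1 with upper-quartile factors and 0 to 3 with each library left out.

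Values that changed sign with library size only were, for miR-148b, 0.97 in CP_7 against CP_0, -0.16 in CP_14 against CP_7, -0.39 in CC against CP_0 and -1.36 in CC against CP_7, for miR-152, 0.98 and -0.75 in the first 2 of these, and for miR-148a -0.18 in CC against CP_14. With totals without miR-21-5p they were 0.021 (miR-148b) and 0.026 (miR-152) in CP_7 against CP_0, and for miR-152 -0.18 in CP_14 against CP_7 and -0.15 in CP_14 against CP_0. With upper-quartile factors miR-152 had -0.19 in CP_14 against CP_0 and 0.052 in CC against CP_7, and with DESeq2 miR-148b had -0.040 in CC against CP_0. With each library left out, miR-148b ran from -0.34 to 0.012 in CP_7 against CP_0 and from -0.060 to 0.12 in CC against CP_0, and miR-152 from -0.0074 to 0.14 in CP_14 against CP_0 and from -0.52 to 0.028 in CC against CP_7. The family shares with totals without miR-21-5p were 4.80% on day 0, 18.3% on day 7, 7.28% on day 14 and 12.9% for CC.

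The replicate number as a block changed no call of a member (miR-148d in CP_14 against CP_7 stayed at 1.599, adjusted p = 0.0062 by limma with the replicate block). Over all miRNAs tested, calls split into 88 higher and 69 lower in CP_7 against CP_0, 60 and 70 in CP_14 against CP_7, 104 and 102 in CC against CP_14, 62 and 53 in CP_14 against CP_0, 78 and 67 in CC against CP_0, and 80 and 106 in CC against CP_7. With library size only, 20 of 172 calls were lower in the first of these, and the others split 26 and 138, 40 and 163, 76 and 33, 30 and 112, and 20 and 191, with median log2 fold changes of 1.12, -0.84, -0.54, 0.16, -0.33 and -1.44 over the 6. With upper-quartile factors CP_7 against CP_0 split 65 and 87, CP_14 against CP_0 50 and 91, and CC against CP_7 116 and 77. With totals without miR-21-5p CP_14 against CP_7 split 43 and 87, CC against CP_14 138 and 66, CP_14 against CP_0 49 and 80, and CC against CP_0 108 and 36. With at least 2-fold the calls were 109, 76, 98, 48, 51 and 132 in the order above.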
